A study of Homo sapiens with 6 samples.

Results

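The mRNA levels of 43 interferon-stimulated genes (ISGs) were compared between untreated and oxaliplatin-treated HCT116 cells. HCT116 is a human colorectal cancer cell line with wild-type p53, and oxaliplatin is a platinum drug that crosslinks DNA. The untreated group (NT) held 3 libraries of cells that received no drug, and the treated group (OXA) held 3 libraries of cells given 0.5 µM oxaliplatin for 24 h. All 6 libraries were poly(A) RNA-seq of the same parental line, with no genetic change in either group. Nothing in the labels says that the 3 libraries of a group came from separate cultures, so the p-values measure the spread between these libraries, which may be technical. Members were chosen by symbol from a list of 43 ISGs, and each of the 43 matched 1 row of the 27942 genes in the table.

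Interferons are secreted proteins that bind receptors at the cell surface. The receptors activate the kinases JAK1 and TYK2 (type I and III interferon) or JAK1 and JAK2 (type II), which phosphorylate STAT proteins. The complex ISGF3, which contains STAT2 and IRF9, binds the interferon-stimulated response element (ISRE) in the promoters of ISGs. ISGs encode sensors of foreign nucleic acid, effectors that block steps of viral growth, and regulators of the pathway itself. DNA damage can also reach this pathway through DNA that leaves the nucleus and is sensed by cGAS and STING.

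The ISRE was searched for in the promoters of the members, because ISGF3 binds it. The windows were RefSeq sequences on build GRCh38.p14, each from 250 bases before to 50 after an annotated start, and 35 of the 43 members had at least 1. The promoters of IRF7, USP18, IFIT2, OAS2, OASL, MX2, IFITM2 and TRIM22 were not analysed here. The ISRE core GAAA-NN-GAAA (N is any base), searched on both strands, was present in 25 of the 35 members (71.4%) and in 4.38% of all 27305 genes with a window. The gamma-activated site core TTCNNNGAA, found in promoters that respond to interferon gamma, was also searched on both strands, and it was present in 13 of the 35 members (37.1%) and in 9.38% of all genes. In 4 of these 13 members every such core overlapped an ISRE core. A match is a description of the letters and does not show binding.

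The 6 promoters below are those of the most abundant member (IFITM3), of 3 members that differed between the groups with or without the replicate block described further on (OAS3, TLR3 and PLSCR1), of the founding member of the ISG15 system, and of a member with 3 cores (IFIT5). Each runs 5′ to 3′ on the strand of its gene, from 150 bases before to 9 after the start base, which is position 0. Capitals mark each ISRE core, read as GAAA-NN-GAAA or as its reverse complement.
OAS3: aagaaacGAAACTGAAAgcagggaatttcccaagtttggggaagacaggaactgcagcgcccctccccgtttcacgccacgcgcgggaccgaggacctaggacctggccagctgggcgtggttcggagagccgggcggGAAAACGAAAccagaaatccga
TLR3: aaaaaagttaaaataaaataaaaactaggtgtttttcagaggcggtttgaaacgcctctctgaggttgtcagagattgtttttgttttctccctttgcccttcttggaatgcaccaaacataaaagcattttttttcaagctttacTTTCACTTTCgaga
PLSCR1: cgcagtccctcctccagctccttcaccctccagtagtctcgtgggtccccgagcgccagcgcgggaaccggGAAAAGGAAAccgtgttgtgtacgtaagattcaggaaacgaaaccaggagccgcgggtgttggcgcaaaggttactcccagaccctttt
IFITM3: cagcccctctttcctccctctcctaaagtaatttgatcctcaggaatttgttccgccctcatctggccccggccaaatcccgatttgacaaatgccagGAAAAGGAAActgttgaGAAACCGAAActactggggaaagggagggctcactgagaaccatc
ISG15: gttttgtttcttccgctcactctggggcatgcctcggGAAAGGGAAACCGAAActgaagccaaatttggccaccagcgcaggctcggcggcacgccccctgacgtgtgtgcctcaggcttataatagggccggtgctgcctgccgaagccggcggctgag
IFIT5: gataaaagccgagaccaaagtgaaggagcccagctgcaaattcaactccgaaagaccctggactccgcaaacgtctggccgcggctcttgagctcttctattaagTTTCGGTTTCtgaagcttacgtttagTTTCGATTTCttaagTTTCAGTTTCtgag

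The OAS3 stretch is chr12:112938324-112938483 on the plus strand, and its cores begin at positions -143 and -12. TLR3 (chr4:186069006-186069165, plus strand) has 1 core, at -4, that spans the start. In PLSCR1 (chr3:146544598-146544757, minus strand) the core begins at -79. The IFITM3 stretch (chr11:320851-321010, minus strand) holds cores at -52 and -35. In ISG15 (chr1:1013347-1013506, plus strand) the cores at -113 and -107 overlap each other. IFIT5 (chr10:89414418-89414577, plus strand) has cores at -45, -19 and -4. CMPK2 had no match in its windows, and MX1 had none at its canonical start but 1 in each of 2 windows at other starts. Of the tested members with a window, the 22 with an ISRE core had a median log2 fold change of -0.18 (7 above and 15 below 0), and the 7 without one had a median of -0.27 (3 above and 4 below 0). Both groups thus had more members below than above 0.

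Library totals lay between 32979521 and 40967880 counts, and the 43 members together took between 0.0559% and 0.0676% of a library. The epithelial markers EPCAM, KRT8, KRT18 and CDH1 had between 3282 and 58081 counts in every library, CDX2 had between 434 and 599 and VIL1, the lowest of the 6, between 39 and 95, whereas PTPRC and CD3E, which define leukocytes and T cells, had at most 2 counts and the fibroblast genes DCN and LUM had 0. Of the 6 immune markers, 3 stayed at or under 3 counts in every library and CD68 alone passed the filter on low counts (152 to 237 counts). COL1A1 was the only tested marker of 5 for fibroblasts (107 to 273 counts) and VWF of 4 for endothelium (13 to 29 counts). None of the 6 epithelial markers was called without the block, and 2 were higher and 1 lower with it. NT library 1 stood apart from the other untreated libraries in genes of high GC content, and the values of the members without it are given with their GC content. In bulk RNA, fewer cells that express a gene and less RNA per cell cannot be told apart.

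The log2 fold changes of the members lay on both sides of 0, and most were small. Of the 43 members, 35 passed the filter on low counts. The 8 that did not were IFI16, OAS2, MX2, SAMD9L, RSAD2, IFI44, IFI44L and XAF1, and 4 members never exceeded the floor of 3 counts in a library. Among the 35 tested members, 14 log2 fold changes were above 0 and 21 below (60.0% below, against 46.7% of all 13727 genes tested). Their median was -0.16, beside 0.02 over all genes, and 27 of the 35 lay within 0.5 of 0. Log2 fold changes are those of OXA over NT.

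At an adjusted p-value under 0.05 (edgeR's quasi-likelihood test, Benjamini-Hochberg adjustment over all genes tested), 1 member rose and 2 fell, that is 8.57% of the 35 tested, beside 5.07% of all genes (2.78% higher and 2.29% lower). TRIM22 rose, and OAS3 and MX1 fell. At an unadjusted p-value under 0.05 the counts were 3 higher and 5 lower of the 35, beside 21.7% of all genes, so this share was near the background. DESeq2 called 1 member higher (TLR3) and 1 lower (OAS3), beside 9.26% of all genes (4.63% in each direction), and gave no adjusted p for 6 of the 35. With the replicate number as a block, which takes up differences shared by same-numbered NT and OXA libraries, 4 members rose (TRIM22, TLR3, OASL and IFITM2) and 4 fell (OAS3, MX1, CMPK2 and PLSCR1), 22.9% of those tested beside 23.0% of all genes. The libraries of the groups did not overlap in 3 members higher and 5 lower in OXA, 22.9% beside 28.9% of all genes. The members' shares were thus near those of all genes in the blocked fit and in the count of separated groups.

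**Figure D1:**
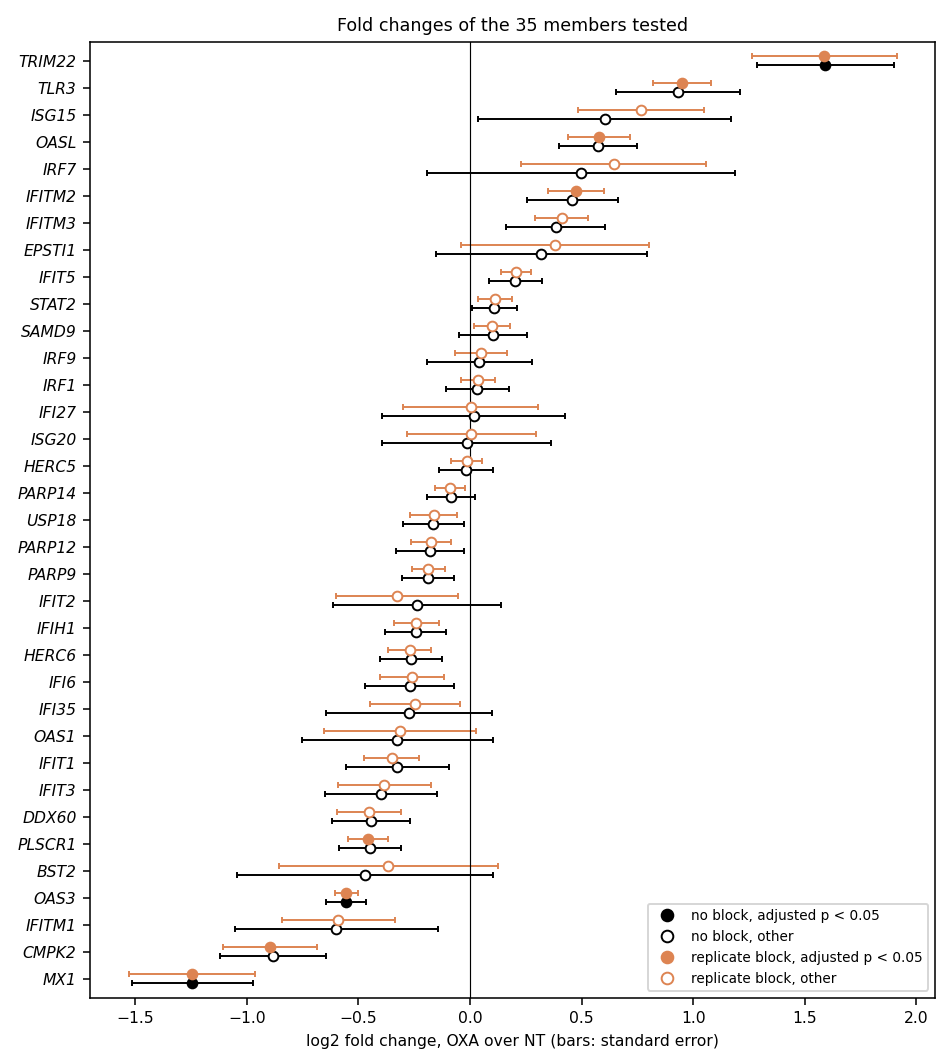
Log2 fold change of OXA over NT (x axis) for each of the 35 members that passed the filter, ordered by size, with bars of 1 standard error, in the edgeR fit without a block (black) and with the replicate block (orange). Filled points have an adjusted p-value under 0.05, and the values run from -1.24 (MX1) to 1.59 (TRIM22) in the fit without a block.

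Levels across genes were compared as RPKM, counts divided by the length of the canonical transcript and by the effective library size. IFITM3 was the most abundant member at 210.2 ± 60.5 RPKM in NT and 274 ± 49.6 in OXA (mean ± SD, n = 3 each). IFITM2 followed at 58.4 ± 15.2 and 80.2 ± 13.7, then OAS3 at 17.6 ± 1.31 and 12 ± 0.562. The libraries of these 3 genes did not overlap each other in either group. PLSCR1 (12.8 ± 0.729 in NT and 9.34 ± 1.56 in OXA) and ISG15 (9.48 ± 6.23 in NT and 14.4 ± 5.53 in OXA) came next in NT and overlapped within their spread. In OXA the mean of ISG15 was above those of OAS3 and PLSCR1, with overlapping libraries. IFITM1, IFITM2 and IFITM3 together held between 24.0% and 44.5% of all counts of the members in a library, the lowest share being that of NT library 1.

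**Figure D2:**
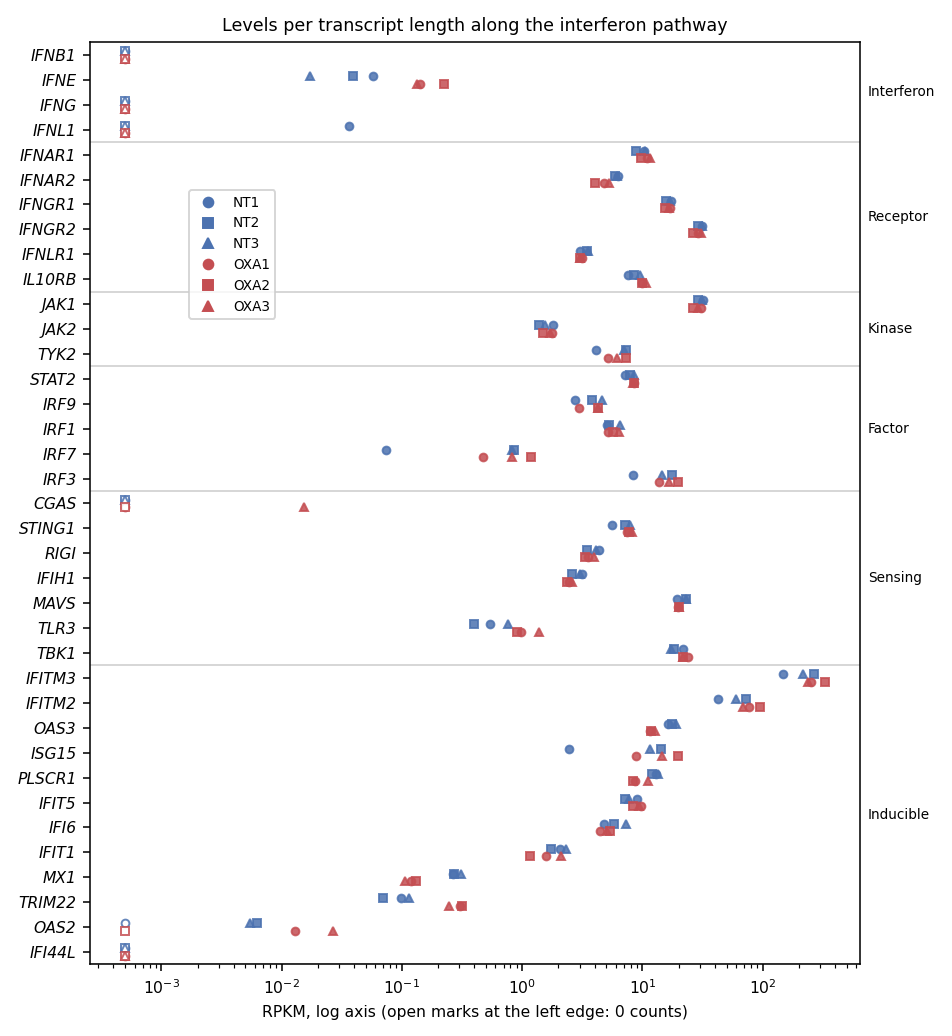
RPKM (log x axis) in each of the 6 libraries for genes along the interferon pathway, from ligands at the top to inducible effectors at the bottom, with NT in blue, OXA in red and open marks for 0 counts. The ligands sit at or near 0 counts, the receptors and kinases are above 1 RPKM in every library, and the members range from IFITM3, the highest, down to IFI44L at 0 counts.

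All 4 transcription factors among the members missed the threshold, with log2 fold changes between 0.03 and 0.50. STAT2, a subunit of ISGF3, had 1131, 1247 and 1352 normalized counts (scaled to the mean effective library size) in NT libraries 1 to 3 and 1356, 1339 and 1328 in OXA libraries 1 to 3. The OXA libraries lay close together and inside the NT range apart from the first. The log2 fold change was 0.11 (SE 0.10, edgeR adjusted p = 0.591). IRF9, which gives ISGF3 its DNA contact, had 160.5, 223 and 268 normalized counts in NT and 173, 249.7 and 249 in OXA, so that library 1 was the lowest of each group (log2 fold change 0.04, SE 0.24, edgeR adjusted p = 0.942). IRF1, a factor induced by interferon gamma, had 648, 669 and 837 in NT and 667, 723 and 813 in OXA. The ranges overlapped (log2 fold change 0.03, SE 0.14, edgeR adjusted p = 0.923). IRF7, which amplifies the transcription of interferon genes, had 5.11, 59.2 and 56.6 normalized counts in NT and 32.5, 81.8 and 57.0 in OXA. NT library 1 was far below the other untreated libraries, and the log2 fold change of 0.50 (SE 0.69, edgeR adjusted p = 0.733) became -0.02 without it. IRF9 shares 92.6% of its 100-base windows with an annotated readthrough gene, so its count is uncertain.

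Of the 4 sensors, TLR3, the endosomal receptor for double-stranded RNA, differed most. TLR3 (chr4:186068911-186088073 on GRCh38) had 118, 86.3 and 166 normalized counts in NT and 212, 195 and 299 in OXA. All 3 OXA libraries were above all 3 NT libraries, and in both groups library 3 was the highest and library 2 the lowest. The log2 fold change was 0.93 (SE 0.28) with an edgeR adjusted p of 0.10, and 0.95 with an adjusted p of 0.00831 in the blocked fit. DESeq2 called TLR3 without a block (adjusted p = 0.0279). IFIH1, the cytosolic sensor MDA5, had 409, 337 and 388 in NT and 316, 303 and 338 in OXA. The highest OXA library was just above the lowest NT library (log2 fold change -0.24, SE 0.13, edgeR adjusted p = 0.350). DDX60, a helicase that promotes sensing of viral RNA, was lower in every OXA library (230.5, 184 and 272 normalized counts) than in any NT library (338, 300.3 and 297), but missed the threshold at -0.44 (SE 0.18, edgeR adjusted p = 0.196; 0.0716 with the block). IFI16, a sensor of DNA, had raw counts of 1, 1 and 0 (NT) and 3, 0 and 2 (OXA), too few to test.

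The ISG15 system attaches the ubiquitin-like protein ISG15 to target proteins, with HERC5 as its main ligase and USP18 as the protease that removes it. ISG15 had 56.2, 328 and 267 normalized counts in NT and 202, 456 and 333 in OXA. Library 1 was the lowest of each group, and NT library 1 lay far below the other 5 libraries. The log2 fold change was 0.60 (SE 0.57, edgeR adjusted p = 0.595), and 0.15 without NT library 1. HERC6, the least abundant of the system per length, had 538, 479 and 560.3 normalized counts in NT and 395, 414 and 502 in OXA, with overlapping ranges (-0.27, SE 0.14, edgeR adjusted p = 0.324). HERC5 (-0.02) and USP18 (-0.16) also missed the threshold. USP18 shares 36.4% of its 100-base windows with USP41 and other copies, and its level is uncertain for that reason.

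The IFIT family includes proteins that bind the ends of foreign RNA and block its translation. IFIT1, IFIT2 and IFIT3 had log2 fold changes of -0.33, -0.24 and -0.40, and IFIT5 of 0.20, and none of the 4 passed the threshold. IFIT5, the most abundant, had 1297, 1049 and 1112 normalized counts in NT and 1415, 1213 and 1349 in OXA. The second OXA library fell among the untreated ones (SE 0.12, edgeR adjusted p = 0.377), whereas with the GC and length trends of each library removed the adjusted p was 0.00605. IFIT3, the least abundant, had 58.3, 52.0 and 84.9 in NT and 44.4, 51.2 and 52.6 in OXA, and NT library 3 stood above the other 5 libraries. The ranges overlapped in all 4 genes. IFIT1, IFIT2 and IFIT3 overlap LIPA on the opposite strand.

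Members of the OAS family, which make the 2′-5′ oligoadenylates that activate RNase L, had log2 fold changes on both sides of 0. OAS3 (chr12:112938051-112976460) had 3872, 4207 and 4495 normalized counts in NT and 2767, 2782 and 3005 in OXA. The OXA libraries lay within a narrow range, entirely below the untreated ones. OAS3 fell by 0.56 on the log2 scale (SE 0.09, 1.47-fold lower, edgeR adjusted p = 0.0183; 0.00329 with the block), and DESeq2 called it as well. Its call was kept without NT library 1 or 2 and lost without NT library 3 (edgeR adjusted p = 0.0634) or without any 1 of OXA libraries 1 to 3 (0.115, 0.0955 and 0.0587). OASL (chr12:121017763-121039246), a relative that lacks the synthetase activity and promotes RIG-I signalling, had 94.0, 104 and 126 normalized counts in NT and 153, 167 and 163 in OXA. Every OXA library was above every NT library. OASL missed the threshold at 0.57 (SE 0.17, edgeR adjusted p = 0.106) and passed it in the blocked fit (0.58, adjusted p = 0.0363). OAS1 (13, 7 and 20 raw counts in NT, 10, 7 and 14 in OXA) gave -0.33 with an SE of 0.43. OAS2, the least abundant, had raw counts of 0, 1 and 1 (NT) and 2, 0 and 5 (OXA) and was not tested. OAS1, OAS2 and OAS3 overlap a long noncoding RNA on the opposite strand.

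MX1 (chr21:41420020-41470071), a dynamin-like GTPase that traps viral nucleocapsids, was weakly expressed and fell. It had 26.6, 27.0 and 31.0 normalized counts in NT and 11.9, 13.1 and 10.7 in OXA (raw, 26, 26 and 34 against 11, 12 and 12). The groups were well separated, but each value rested on few counts. MX1 fell by 1.24 on the log2 scale (SE 0.27, 2.37-fold lower, edgeR adjusted p = 0.0441; 0.0301 with the block). The call was lost in every fit that left out 1 library (NT 1 to 3 or OXA 1 to 3, adjusted p between 0.0563 and 0.182) and in the fit with no filter on low counts (0.0621). DESeq2 gave an unadjusted p of 0.0258 and no adjusted p. MX1 overlaps TMPRSS2 on the opposite strand. MX2, its relative, had raw counts of 2, 2 and 2 (NT) and 0, 2 and 1 (OXA) and was not tested.

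The IFITM proteins sit in membranes and hinder the fusion of enveloped viruses. IFITM3 had 3226, 5876 and 4763 normalized counts in NT and 5545, 7282 and 5268 in OXA. NT library 1 was the lowest of all 6 and OXA library 2 the highest, and the groups overlapped. Its log2 fold change was 0.38 (SE 0.22, edgeR adjusted p = 0.369; 0.0593 with the block). It was 0.18 without NT library 1 and 0.14 with the GC and length trends removed. IFITM2 (chr11:303655-309397) followed the same order of libraries within each group, with 1544, 2642 and 2161 normalized counts in NT and 2788, 3449 and 2479.7 in OXA. The groups overlapped here too. IFITM2 missed the threshold without the block (0.46, SE 0.20, adjusted p = 0.248) and passed it with the block (0.48, edgeR adjusted p = 0.0436). Its log2 fold change was 0.28 without NT library 1 (edgeR adjusted p = 0.282), and 0.28 with the GC and length trends removed (0.114). IFITM1, far less abundant, had 14.3, 35.3 and 38.3 normalized counts in NT and 10.8, 22.9 and 24.1 in OXA. Library 1 was the lowest of each group, and the log2 fold change was -0.60 (SE 0.46, edgeR adjusted p = 0.504). IFITM1 shares 50.1% of its 100-base windows with IFITM3 and a readthrough gene, so part of its counts could belong to IFITM3, and 8.2% of the IFITM3 windows are shared.

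The PARP family includes enzymes that transfer ADP-ribose to proteins. Its 3 genes among the members had log2 fold changes of -0.19 (PARP9), -0.18 (PARP12) and -0.09 (PARP14), and none passed the threshold. PARP12, the most abundant per length, had 604, 738 and 841 normalized counts in NT and 605, 599 and 722 in OXA, and PARP14, the least abundant, had 1337, 1217 and 1309 and 1286, 1080.5 and 1269.7. Ranges overlapped in both. SAMD9, an inhibitor of poxvirus replication and of translation, had 581, 504 and 627 in NT and 668, 509 and 661 in OXA (0.10, SE 0.15, edgeR adjusted p = 0.747). Its neighbour SAMD9L had raw counts of 1, 4 and 2 (NT) and 1, 0 and 0 (OXA) and was not tested.

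TRIM22 (chr11:5689610-5737089), an E3 ubiquitin ligase that restricts several viruses and is also a known p53 target, showed the largest log2 fold change of the 35 members. It had 10.2, 7.27 and 11.9 normalized counts in NT and 31.4, 32.7 and 25.8 in OXA (raw, 10, 7 and 13 against 29, 30 and 29). The lowest OXA library was well above the highest NT library. TRIM22 rose by 1.59 on the log2 scale (SE 0.31, 3.01-fold, edgeR adjusted p = 0.0298; 0.0228 with the block). The call was kept without NT library 1 (0.0402), and without NT library 2 or 3 or OXA library 1, 2 or 3 it was lost (adjusted p between 0.0848 and 0.144). With the authors' gene-specific factors the log2 fold change was 0.94 (edgeR adjusted p = 0.199), and DESeq2 gave an unadjusted p of 0.00645 and no adjusted p. TRIM22 overlaps TRIM5 on the opposite strand.

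Of the other effectors, CMPK2 and PLSCR1 were lower in OXA. CMPK2 (chr2:6840570-6866635), a mitochondrial nucleotide kinase next to RSAD2, had 74.6, 75.9 and 80.3 normalized counts in NT and 49.8, 30.5 and 44.6 in OXA. All OXA libraries lay below all NT libraries, with OXA library 2 the lowest. It missed the threshold at -0.88 (SE 0.24, edgeR adjusted p = 0.0777) and passed it with the block (-0.90, adjusted p = 0.0334). PLSCR1 (chr3:146515180-146544856), a phospholipid scramblase, had 917, 852 and 955 in NT and 611, 589.8 and 792 in OXA. OXA library 3 was nearest to the untreated range and still below it. The log2 fold change was -0.45 (SE 0.14, edgeR adjusted p = 0.112), and -0.46 with the block (adjusted p = 0.0207). BST2, tetherin, which holds budding virions at the cell surface, had 5.11, 32.2 and 30.1 normalized counts in NT and 15.1, 18.5 and 15.1 in OXA, and NT library 1 was the lowest of all 6 (-0.47, SE 0.57, edgeR adjusted p = 0.694). ISG20, an exonuclease, gave -0.01 (SE 0.38). RSAD2, which encodes viperin, had raw counts of 2, 6 and 1 (NT) and 0, 1 and 1 (OXA) and was not tested. CMPK2 and RSAD2 overlap on opposite strands.

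The remaining 7 inducible genes held no call in the fits with and without the block. IFI6, a mitochondrial and endoplasmic reticulum protein that was the most abundant of them, had 140.1, 170.4 and 214 normalized counts in NT and 129.8, 156 and 149.7 in OXA, with overlapping ranges (-0.27, SE 0.20, edgeR adjusted p = 0.488). With the GC and length trends of each library removed, IFI6 was lower (-0.47, edgeR adjusted p = 0.0455), beside 23.1% of all genes called. With the block as well, IFI6 (0.0139) and IFI35 (0.0258) were lower, beside 45.6% of all genes called. IFI35 (-0.27), IFI27 (0.02) and EPSTI1 (0.32) had standard errors between 0.37 and 0.47 without the block. IFI44 had raw counts of 10, 8 and 20 (NT) and 2, 7 and 10 (OXA) and was not tested. XAF1, a proapoptotic gene, had at most 2 counts in a library. IFI44L had 0 counts in all 6 libraries, which allows up to 3 counts per library, and this floor covers counting error only.

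**Figure D3:**
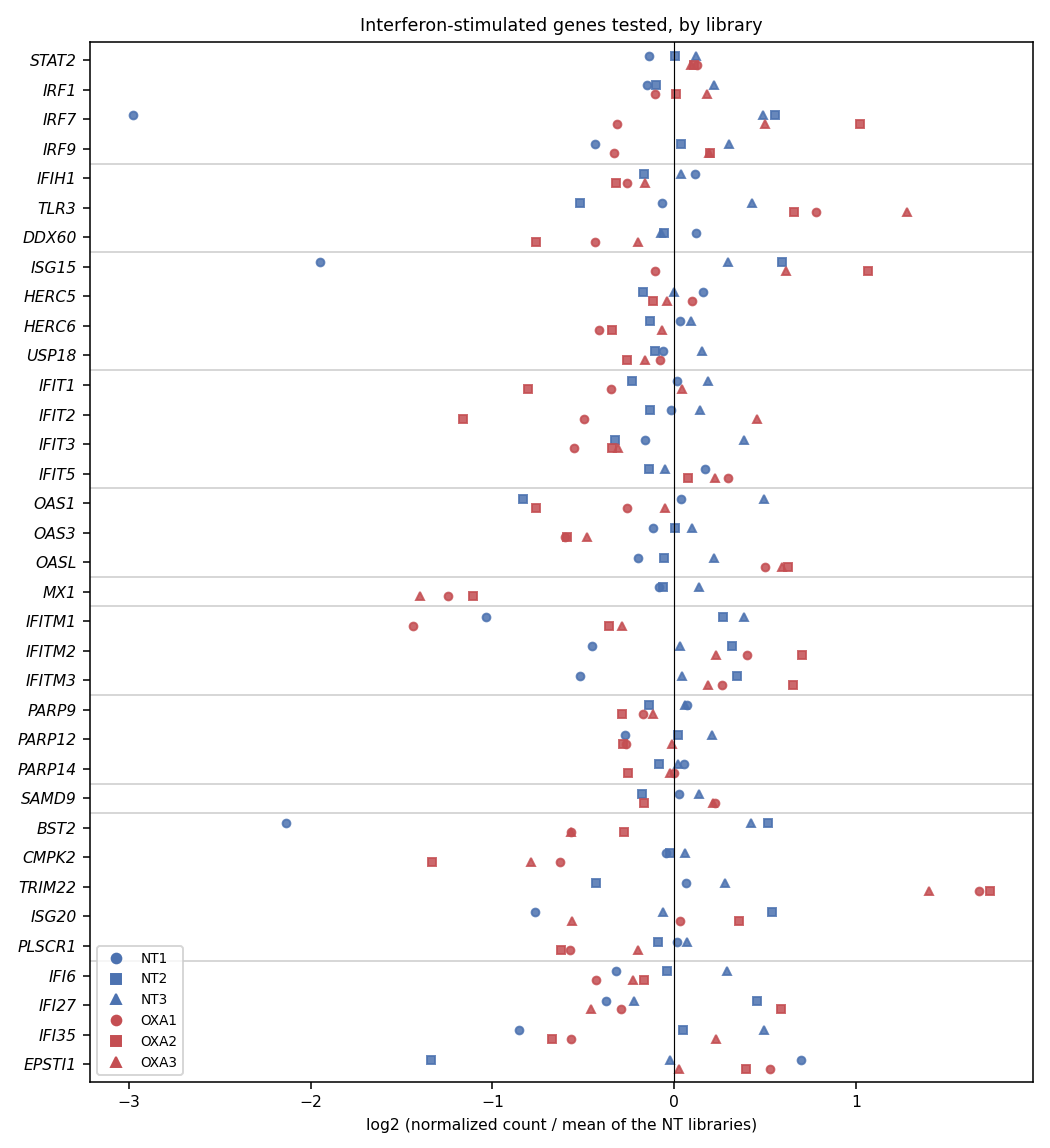
Log2 of the normalized count over the mean of the NT libraries (x axis) for the 35 tested members, with 1 point per library (NT blue, OXA red, marker shape for the replicate number) and grey lines between roles. TRIM22, TLR3 and OASL have all OXA points to the right of the NT points, DDX60, OAS3, MX1, CMPK2 and PLSCR1 have them to the left, and NT library 1 lies far to the left in IRF7, ISG15 and BST2.

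The position of NT library 1 in the members moved with GC content. Over 13675 tested genes with a known transcript, the log2 ratio of each library to the mean of the other libraries of its group (0.5 added to each) correlated with GC content at r = -0.68 in NT library 1 and -0.40 in OXA library 1, at 0.57 and 0.47 in the libraries 2, and at 0.26 and -0.12 in the libraries 3, which differed in sign. Over the 35 members the values were -0.75 and -0.58, 0.67 and 0.63, and 0.34 and -0.28. These are descriptions across genes, which share libraries and are not independent. In the 9 tested members with a GC content of at least 55%, the log2 ratio of NT library 1 to the mean of the other untreated libraries was below 0 in all 9 (median -1.14, from -3.38 to -0.46). Leaving out a library below the mean of the others raises the untreated mean, so lower log2 fold changes in these 9 follow from that position. Without NT library 1 they were -0.02 for IRF7, 0.15 for ISG15, 0.28 for IFITM2, 0.18 for IFITM3 and -0.92 for IFITM1. For BST2, IFI35, IFI6 and IFI27 they were -0.93, -0.56, -0.41 and -0.14, and none of the 9 was called. In the 14 members under 45% GC the log2 ratio of NT library 1 was above 0 in 11 (median 0.09). The extremes were IRF7 (66.6% GC), BST2 (57.3%) and ISG15 (64.2%). With the trends on GC content and transcript length removed from each library, 4 members were higher (TRIM22, TLR3, OASL and IFIT5) and 5 lower (OAS3, MX1, CMPK2, PLSCR1 and IFI6), beside 23.1% of all genes called. With the replicate block in the same fit, 8 were higher and 10 lower of the 35, beside 45.6% of all genes. The part of GC content in the differences between groups was not tested.

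**Figure D4:**
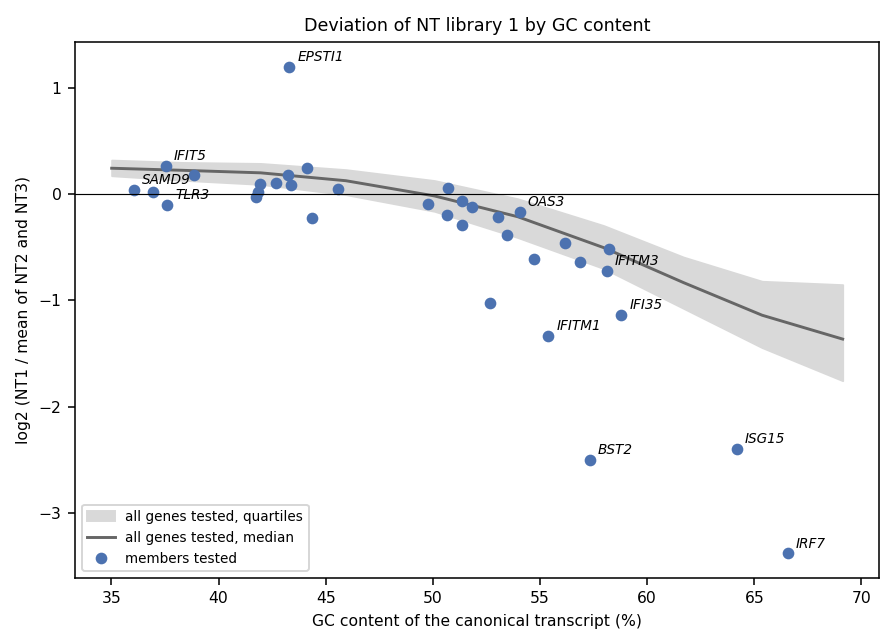
Log2 ratio of NT library 1 to the mean of NT libraries 2 and 3 (y axis) against the GC content of the canonical transcript in percent (x axis), for the 35 tested members (points) and for all tested genes (line, median; band, quartiles, in bins of GC content). The members of at least 55% GC all lie below 0, and IRF7 is the lowest at -3.38.

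Upstream of the members, the interferon genes themselves were almost silent. Of 21 interferon genes listed, 17 had 0 counts in all libraries, 20 never exceeded 3 counts, and none passed the filter. IFNE, an epithelial type I interferon, had raw counts of 3, 2 and 1 (NT) and 7, 11 and 8 (OXA). Its ratio of OXA to NT was 4.44 after library size, with an exact 95% counting interval from 1.79 to 13.2 that does not include the spread between libraries. Counts of 0 at this depth limit the transcripts in these cells and say nothing of secreted protein.

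The receptors and kinases were expressed, and edgeR called none of the 15 genes for receptors, kinases and feedback, beside 5.07% of all genes. At an unadjusted edgeR p-value under 0.05, 0 were higher and 2 lower, beside 21.7% of all genes. DESeq2 called 0 higher and 0 lower, beside 9.26% of all genes. With the block 0 were higher and 2 lower, 13.3% beside 23.0% of all genes. IFNAR1, a chain of the type I receptor, had 2255, 1921 and 2279 normalized counts in NT and 2379, 2134 and 2542 in OXA (0.13, SE 0.11, edgeR adjusted p = 0.556). IFNAR2, the other chain, had 914, 868 and 902 and 708, 589.8 and 775. All its OXA libraries were lower (-0.37, SE 0.13, edgeR adjusted p = 0.138; 0.0337 with the block). JAK1 (-0.10) and TYK2 (0.01) missed the threshold in both fits, and TYK2 was low in NT library 1 (633, 1119 and 1075 normalized counts in NT).

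Among 18 tested genes of nucleic acid sensing, of 23 listed, 1 was lower and none higher, 5.56% beside 5.07% of all genes. This was ENPP1, which degrades the messenger cGAMP, with 1206, 977 and 1072 normalized counts in NT and 744, 633 and 710.1 in OXA. It fell by 0.64 on the log2 scale (SE 0.12, edgeR adjusted p = 0.0289; 0.00468 with the block). The ENPP1 call was kept in 2 of the 6 fits that left out 1 library (edgeR adjusted p of up to 0.135). CGAS, which makes cGAMP upon binding DNA, had 0 counts in 5 libraries and 2 in OXA library 3. STING1, the receptor of cGAMP, had 432, 563 and 621 normalized counts in NT and 581, 603 and 638 in OXA (0.17, SE 0.15, edgeR adjusted p = 0.568). TBK1, the kinase that acts downstream of STING and MAVS, was higher in every OXA library (2611, 2375 and 2385, against 2357, 1981 and 1887 in NT), with a log2 fold change of 0.24 (SE 0.11, edgeR adjusted p = 0.250; 0.0362 with the block). With the block RNASEH2B, a subunit of the enzyme that removes RNA from DNA, was lower as well (-0.27, edgeR adjusted p = 0.0390). The blocked fit called 1 sensing gene higher and 2 lower, 16.7% beside 23.0% of all genes. MAVS, the mitochondrial adaptor of the RNA sensors (-0.14, 0.462), and IRF3, the factor that TBK1 phosphorylates (0.31, 0.556), missed the threshold, each given as log2 fold change and edgeR adjusted p.

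A wider list of 50 other interferon-inducible genes had 49 in the table and 36 tested. It held 1 higher and 0 lower gene in edgeR, 2.78% of those tested beside 5.07% of all genes. At an unadjusted edgeR p-value under 0.05 it held 7 higher and 1 lower, beside 21.7% of all genes (10.7% higher and 11.1% lower). DESeq2 called 3 higher and 1 lower, beside 9.26% of all genes (4.63% in each direction). The median log2 fold change of the 36 tested genes was 0.09, with 22 above and 14 below 0, whereas the members' median was -0.16. RNF213 of this list was not analysed here. SP100, a nuclear body protein, had 1262, 1054 and 1196 normalized counts in NT and 1747, 1619 and 1605 in OXA. It rose by 0.50 on the log2 scale (SE 0.10, edgeR adjusted p = 0.0395, and 0.00796 with the block). The SP100 call was kept in 1 of the 6 fits that left out 1 library (edgeR adjusted p of up to 0.182). It was lost with no filter on low counts (0.0534). With the block 7 genes of the list were higher and 2 lower (25%, beside 23.0% of all genes). Of these, BATF2 (0.79), HSH2D (0.73), PML (0.61), the scaffold of the same nuclear bodies, and ZNFX1 (0.40), an RNA sensor, were higher in every OXA library, and DTX3L (-0.46), the partner of PARP9, was lower in every OXA library, given as blocked log2 fold changes with edgeR adjusted p = 0.0394, 0.0241, 0.0264, 0.00982 and 0.00963. NT library 1 was the lowest library for BATF2 (41.9, 79.0 and 68.4 normalized counts in NT), HSH2D (218, 364 and 374) and PML (542, 1019 and 882). DTX3L overlaps PARP9 on the opposite strand. The chemokines CXCL9, CXCL10 and CXCL11, textbook markers of an interferon response, had 0 counts in all 6 libraries, as had IDO1, GBP4 and RTP4.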

How the data were processed

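Poly(A) RNA of HCT116 cells was sequenced as paired reads of a stranded library (TruSeq stranded mRNA). Per the labels and the submitters' processing notes, reads were trimmed with Trimmomatic 0.32 and mapped to GRCh38 with STAR 2.7.5b, and normalization used DESeq2. RSEM 1.3.3 is also listed, but the program, annotation and strand setting used for counting are not given in the sources used here. Without the strand setting, reads of genes that overlap on opposite strands may not be told apart. The deposited raw counts are whole numbers, which entered the tests unchanged. The deposited normalized signal is the raw count times a factor that the authors' processing set per gene and library, and it was used only to recover those factors for an alternative.

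The filter on low counts was filterByExpr with a minimum count of 10 and a minimum total of 15, and 13727 genes passed. Libraries were normalized by TMM and compared with the quasi-likelihood test of edgeR 4.0.16 in R 4.3.3, at a Benjamini-Hochberg adjusted p-value under 0.05. DESeq2 1.42.0 and limma 3.58.1 served as alternatives. The steps were tested on simulated data. GENCODE release 44 gave positions, canonical transcript lengths and GC content. Members and lists were chosen with earlier results of these data known. All members are described, with values per library for those called with or without the block, the transcription factors, and the most and least abundant member of each role, from the fixed lists also genes called in either fit (at most 6 per list). Others were named after their values were seen, and 1 gene that this rule selects is not reported here.

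Deviations from the group mean of same-numbered NT and OXA libraries correlated at 0.55, 0.54 and 0.31 over all genes tested, and those of other pairs at -0.47 to 0.09. Deviations of a gene cancel within a group, so positive values for same-numbered pairs push those of other pairs down. The contrast between the kinds of pair is therefore partly fixed by the calculation. Replicate numbers were read from the titles, and a blocked fit on them is given where it changes a call. Alternatives were other normalization factors, filters and tools, the block and each library left out. Removal of GC and length trends and the authors' factors were added after the data had been seen.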

Additional observations from a re-analysis of the deposited data

How the results depend on the processing

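Counts are given as higher then lower in OXA, at an adjusted p-value under 0.05. With no filter on low counts, 1 member was higher (TRIM22) and 1 lower (OAS3), and 0 of the other inducible genes were higher. With a stricter filter (at least 50 counts in at least 3 libraries), which removed TRIM22 and MX1, 0 members were higher and 1 lower, and 2 other inducible genes were higher. DESeq2 called 636 and 635 of all genes, 1 member higher (TLR3) and 1 lower (OAS3), and 3 and 1 of the other inducible genes, with no adjusted p for 6 of the tested members of low count. The replicate block gave 1664 and 1493 of all genes, 4 and 4 members, 2 genes lower among receptors, kinases and feedback, 1 and 2 in nucleic acid sensing, and 7 and 2 of the other inducible genes, and it changed no other call of a member. Removing the GC and length trends gave 1648 and 1527 of all genes, 4 and 5 members, 2 lower receptors, kinases and feedback genes, 2 and 2 sensing genes, and 6 and 4 other inducible genes. The replicate block with these trends removed gave 3241 and 3020 of all genes, 8 and 10 members, 3 and 5 receptor, kinase and feedback genes, 2 and 8 sensing genes, and 10 and 7 other inducible genes. The authors' factors gave 241 and 200 of all genes in edgeR with 0 members higher, 0 sensing genes lower and 0 other inducible genes higher, and in DESeq2 513 of all genes lower, 0 members higher and 2 other inducible genes higher.

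When 1 library was left out, 66 to 623 of all genes were higher and 19 to 571 lower, 0 to 1 members higher and 0 to 1 lower, 0 to 1 sensing genes lower, and 0 to 2 other inducible genes higher. The highest counts were those without NT library 1 (623 and 571) and the lowest those without OXA library 1 (66 and 19). The cause of these shifts was not tested. Other normalization factors changed no call of a member, and limma-voom moved no count of members by over 1.5 times.

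No member called in the fits with or without the block changed direction. Log2 fold changes of other members crossed 0 as follows. Not all were near 0 in the fit without a block, where IRF7 was 0.50, EPSTI1 0.32, IFI35 -0.27 and IFIT2 -0.24. IFI27 was -0.00704 with no filter, -0.0146 with limma-voom, -0.231 with the GC and length trends removed, -0.237 with the replicate block as well, and -0.577 with the authors' factors in edgeR. ISG20 was 0.0204 with limma-voom and 0.0063 with the replicate block. With the trends removed, IRF1 was -0.00555, IRF9 -0.0549 and HERC5 0.0434, and with the replicate block as well -0.0046, -0.0546 and 0.0429. With the authors' factors STAT2 was -0.023 in edgeR and DESeq2, and IRF9 was -0.0932 and -0.0922. With 1 library left out, the log2 fold changes ranged from -0.0774 to 0.126 for IRF1, -0.0204 to 0.846 for IRF7, -0.135 to 0.196 for IRF9, -0.129 to 0.0672 for HERC5, -0.826 to 0.0631 for IFIT2, -0.0115 to 0.22 for SAMD9, -0.282 to 0.321 for ISG20, -0.37 to 0.275 for IFI27, -0.647 to 0.0299 for IFI35 and -0.0832 to 0.83 for EPSTI1.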

Other observations

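Many of the members lie next to their relatives in the genome (GENCODE 44 on GRCh38, neighbours at most 250 kb apart). The 4 IFIT genes span 138 kb of chromosome 10 (chr10:89283694-89421605), with 1 log2 fold change above 0 and 3 below. The 3 IFITM genes span 25.8 kb of chromosome 11 (chr11:303655-329475), with IFITM2 and IFITM3 above 0 and IFITM1 below. OAS1, OAS3 and OAS2 span 106 kb of chromosome 12 (chr12:112905856-113011723), and both tested genes of the cluster, OAS1 and OAS3, were below 0. OASL, which lies apart from them (chr12:121017763-121039246), was above 0. PARP9 and PARP14 (203 kb of chromosome 3) were both below 0, as were HERC5 and HERC6 (127 kb of chromosome 4). In 3 further pairs only 1 gene was tested, namely CMPK2 beside RSAD2 (57.7 kb), MX1 beside MX2 (108 kb) and SAMD9 beside SAMD9L (48.9 kb), and IFI44 and IFI44L (44.2 kb) were not tested. In each of the 3 tested pairs the untested neighbour had between 0 and 6 raw counts in every library.

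Among the other families of the pathway, the ISRE core was present in 54.3% of 35 other interferon-inducible genes with a promoter window, in 27.8% of 18 interferon genes, in 11.8% of 17 nucleic acid sensing genes and in 8.33% of 12 receptor, kinase and feedback genes, beside 71.4% of the members. These shares describe the reference sequence and carry no measurement from the cells.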
